A study of Drosophila melanogaster with 2 samples.

Results

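The X chromosome carried 318 of the 2464 reproducible peaks recovered with GFP-tagged Clock (Clk) in adult male Drosophila melanogaster, or 12.9% (95% exact binomial interval 11.6 to 14.3). The members are all regions on chromosome X in the authors' dm6 list of peaks that passed their irreproducible discovery rate (IDR) step, which scores how far replicates rank peaks alike. The other 2146 regions lay elsewhere in the genome, including chromosome 4. Of these, 2142 were on the 4 other major arms, which served as the reference. The series mapped binding by chromatin immunoprecipitation followed by sequencing (ChIP-seq) in 1 group of 2 biological replicates, with no second condition. The flies were adult males of the Clk-GFP strain, a transgenic line in which green fluorescent protein is joined to the C-terminus of Clk. Whole organisms were used, their age is given as unknown, and the labels give no hour of collection. The antibody field names Clk, whereas the sample description names an antibody against GFP. Chromatin was sheared by sonication. The labels call the samples biological replicates and do not say whether they came from separate fly collections. No test between conditions was possible, and the intervals given here cover counting error over peaks.

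Clk belongs to the bHLH-PAS family and binds E-box sequences such as CACGTG together with its partner Cycle, and its best known X-linked target is period (per), whose product feeds back on Clk. Male flies have a single X chromosome and pairs of the other large chromosomes, and transcription from the male X is raised by the dosage compensation complex of MSL proteins and roX RNAs. In whole flies, signal from few cells with strong binding and from many cells with weak binding cannot be told apart.

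Summit windows of 101 bp are shown for the 4 strongest X peaks whose window held no annotated untranslated base, because these windows show what the strongest binding sites contain. All are on the plus strand of the RefSeq Release 6 assembly, which is the dm6 build, and the capital marks the summit base. They lay in an intron of Tlk, the gene for Tousled-like kinase (chrX:3742188-3742288, rank 18 of 2464), in an intron of CG32772 (chrX:4910315-4910415, rank 34), in an intron of norpA, the phospholipase C of phototransduction (chrX:4324928-4325028, rank 39), and 182 bp upstream of Gapdh2, a glycolytic enzyme gene (chrX:15867913-15868013, rank 40).
Tlk intron: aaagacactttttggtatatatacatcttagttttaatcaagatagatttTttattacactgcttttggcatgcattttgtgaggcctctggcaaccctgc
CG32772 intron: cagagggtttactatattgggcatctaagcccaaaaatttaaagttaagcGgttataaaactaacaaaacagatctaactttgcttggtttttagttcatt
norpA intron: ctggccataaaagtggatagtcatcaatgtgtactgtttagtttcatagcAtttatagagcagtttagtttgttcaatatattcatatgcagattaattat
Gapdh2 upstream: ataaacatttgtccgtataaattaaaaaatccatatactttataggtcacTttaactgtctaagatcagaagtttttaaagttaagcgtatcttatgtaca
None of these 4 windows contained CACGTG. The longest run shared by any pair among the 5 strongest X windows, on either strand, was the 14 bases tttaaagttaagcg, in the CG32772 and Gapdh2 windows. The run was found in 2 of the 2460 reproducible windows on the major arms and in 2 of 29790 candidate windows, so no other window held it.

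CACGTG stood in 4 of the 318 X summit windows, or 1.26% (0.344 to 3.19), against 1.34% of all reproducible windows and 1.47% of all candidate windows on the major arms. Windows of the same length centred 400 bp to the left and right of the X summits held it in 0.943% and 1.57%. The motif was therefore about as frequent at X summits as beside them. It was found at per, at a peak between CG1677 exons upstream of brk, at the start of Dus2 and in an intron of Raf, which encodes a kinase of the MAP kinase cascade. The windows at per (chrX:2685033-2685133, rank 188), near brk, a repressor gene of the Dpp pathway (chrX:7306788-7306888, rank 551), and in Raf (chrX:2303818-2303918, rank 2010) are shown with the motif in capitals.
per upstream: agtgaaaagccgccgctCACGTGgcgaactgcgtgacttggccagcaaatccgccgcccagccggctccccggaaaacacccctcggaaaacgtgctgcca
near brk: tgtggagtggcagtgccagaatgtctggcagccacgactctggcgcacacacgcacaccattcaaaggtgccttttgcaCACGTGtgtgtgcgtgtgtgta
Raf intron: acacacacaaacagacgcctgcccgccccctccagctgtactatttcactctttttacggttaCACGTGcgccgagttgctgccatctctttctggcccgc
The centre of the motif lay 30.5 bp to the left of the per summit, 31.5 bp to the right of the summit near brk and 15.5 bp to the right of the Raf summit. A match is a description of these letters and does not show a binding site.

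Another 6 motifs were counted on both strands of the same windows. The degenerate E-box CANNTG, which includes CACGTG and CAGCTG, was in 127 of 318 X windows (39.9%) and in 38.5% of all reproducible windows. CAGCTG was in 9 X windows (2.83%, 1.30 to 5.30), below the 4.13% to 8.33% of the other major arms and below the 4.72% of both X flanks. GAGAGA, the core letters bound by GAGA factor and related to the GA-rich elements of dosage compensation, was in 14 X windows (4.40%, 2.43 to 7.28). The other major arms had 5.58% to 6.90%, and the X flanks had 7.55% and 6.92%. Over all candidate windows the order was the opposite, with GAGAGA in 5.63% on X and in 4.53% to 4.98% on the other arms. TATCGATA, the element of the replication-related factor DREF, was in 4 X windows (1.26%) and in 1.07% to 3.77% of windows on the other arms, while among candidate windows it was in 1.43% on X and 0.602% to 0.919% elsewhere. GGTCACACT, a core promoter motif of housekeeping genes, was in 0 of 318 X windows, which allows a share of up to 1.15%, and in 0.418% to 0.855% elsewhere. TGACGTCA, the full site of CREB proteins, was in 1 X window (0.314%), beside 0.325% of all reproducible windows and 0.191% of all candidate windows. With 100 bp to each side of the summit the X shares were 15.1% for GAGAGA, 3.77% for TATCGATA, 1.26% for GGTCACACT, 9.75% for CAGCTG and 66.0% for CANNTG. The X interval for GAGAGA overlapped those of all 4 other arms, and that for CAGCTG overlapped all but that of 2L (5.99 to 11.2). A TATCGATA window in an intron of gce, which encodes a juvenile hormone receptor of the bHLH-PAS family (chrX:15312328-15312428, rank 1119), is shown because it was the 1 of the 4 that held no untranslated base.
gce intron: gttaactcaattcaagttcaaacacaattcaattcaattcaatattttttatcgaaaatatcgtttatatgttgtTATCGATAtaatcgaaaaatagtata

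The X carried fewer peaks than its length would give at the rate of the other arms. It held 13.5 reproducible peaks per Mb of its 23.5 Mb, against 18.9 per Mb on 2R, 19.0 on 3L, 19.9 on 2L and 20.7 on 3R, so the X density was 0.689 of their mean. The strongest 2464 regions of each replicate showed the same order. Replicate 1 had 326 such regions on X, 13.8 per Mb against 18.6 to 20.5, and replicate 2 had 277, 11.8 per Mb against 19.3 to 20.8. The ratios to the mean of the other arms were 0.708 and 0.590. Per 100 protein-coding genes the X had 14.5 peaks against 16.8 to 19.5, and per 100 annotated start sites 6.60 against 7.53 to 10.7. In each of these counts the X value was below that of all 4 other major arms. Copy number, read depth and the control signal of X were not used here, and a lower density of binding sites and a lower coverage of a single-copy chromosome cannot be told apart from the peak lists.

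**Figure D1:**
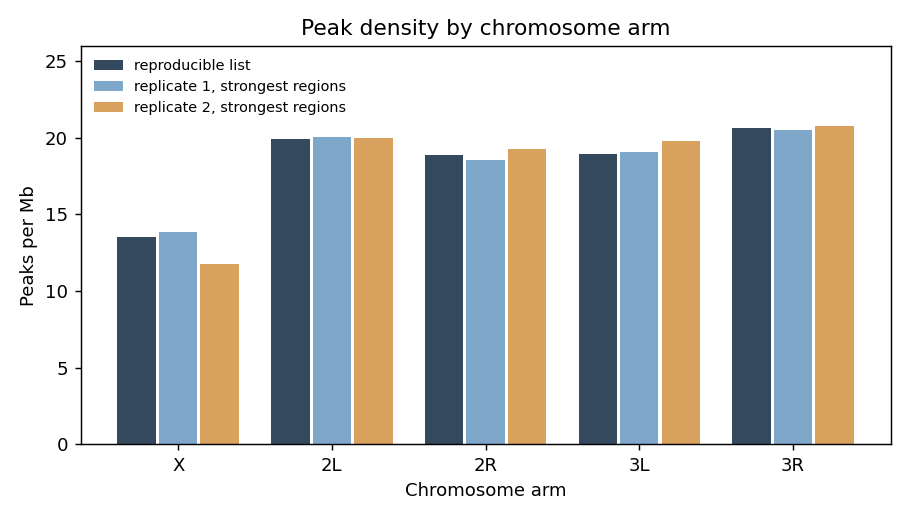
Peaks per Mb of chromosome arm (vertical axis) for X and the 4 other major arms, in the reproducible list and among the same number of strongest regions of each replicate. The X bars stand at 13.5, 13.8 and 11.8 per Mb, and all bars of the other arms lie between 18.6 and 20.8.

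The shortfall was already present among weak candidates. Of the 30000 candidate regions called on both replicates pooled, 3499 lay on X (11.7%), 149 per Mb against 234 to 248 on the other arms. Replicate 1 had 155 candidates per Mb on X against 232 to 249, and replicate 2 had 136 against 236 to 246. Across all arms 8.21% of the pooled candidates were in the reproducible list, and on X 9.09% were, against 7.82% to 8.35% on the other arms. An X candidate was thus kept no less often than others. Within the reproducible list the share of X regions was lowest at the top, although the intervals of the classes overlapped. Among the strongest 300 peaks 27 lay on X, or 9% (6.01 to 12.8), with 13.6% (11.5 to 16%) among ranks 301 to 1232 and 13.3% (11.5 to 15.3) among ranks 1233 to 2464. In replicate 1 the same classes held 10.0%, 14.5% and 13.1%, and in replicate 2 they held 8.33%, 10.9% and 12.2%. On build dm3 the authors' reproducible list had 275 X peaks of 2119, or 13.0%.

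The lower density on X was greatest close to start sites. Within 100 bp of the nearest annotated start site X had 56 peaks, or 2.38 per Mb, and the other arms had 5.58 to 7.11 per Mb, so that the X density was 0.388 of their mean. At 101 to 200 bp X had 2.21 per Mb against 3.40 to 3.99. At 201 to 500 bp the X value of 2.97 per Mb lay inside the range of the other arms, 2.74 to 3.49, and at 1001 to 2000 bp it was 1.87 against 1.60 to 1.90. At 501 to 1000 bp X had 1.53 against 1.81 to 2.38, and beyond 2000 bp it had 2.55 against 2.61 to 3.49. Both replicates showed the gap nearest the start sites. The X density within 100 bp was 2.38 per Mb against 6.01 to 7.29 in replicate 1, and 2.08 against 5.26 to 6.30 in replicate 2. In replicate 1 the X value was again inside or above the range of the other arms at 201 to 500 bp and at 1001 to 2000 bp (3.10 against 2.93 to 3.19, and 1.87 against 1.57 to 1.71). In replicate 2 it was below all 4 in every class, with 2.63 against 2.85 to 3.56 at 201 to 500 bp. Counted per Mb of DNA that lies within 100 bp of a start site, X had 62.9 peaks against 119 to 196 elsewhere, a ratio of 0.416.

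**Figure D2:**
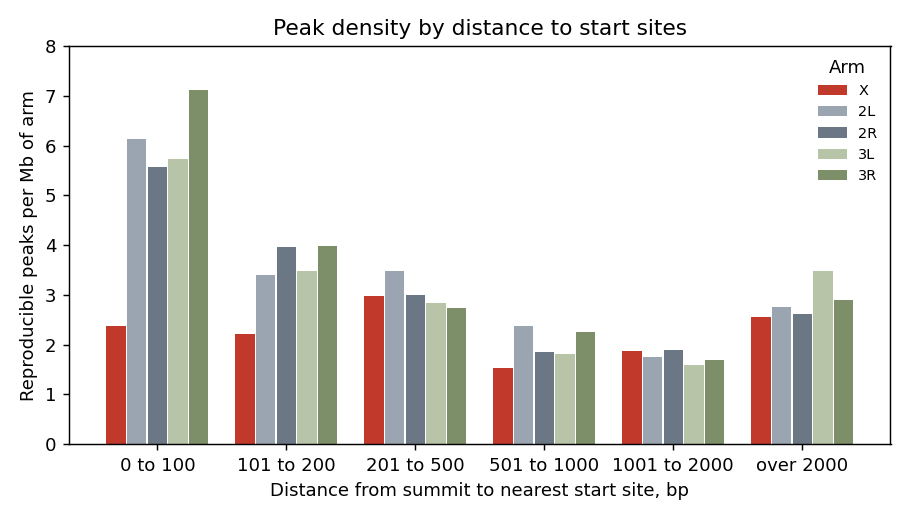
Reproducible peaks per Mb of arm (vertical axis) by distance from the summit to the nearest annotated start site (horizontal axis, in bp), for X and the 4 other major arms. Within 100 bp the X bar stands at 2.38 per Mb and the others at 5.58 to 7.11, and at 201 to 500 bp the X bar of 2.97 lies among the others.

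The position of summits on X differed accordingly. Of the 318 X summits 178 had a start site no more than 500 bp away and are called promoter peaks, or 56.0% (50.3 to 61.5), against 63.6% to 67.0% on the other major arms. The shares were 55.8% in replicate 1 and 56.0% in replicate 2. With a limit of 200 bp the X share was 34.0% (28.8 to 39.5) against 47.9% to 53.7%. The median X summit lay 385.5 bp from the nearest start site, against medians of 173 to 215.5 bp on the other arms, and the median X promoter peak lay at 165 bp. Of the X promoter peaks 140 were upstream of the start site, or 78.7%, against 80.5% on the other arms pooled. Introns beyond 500 bp of a start site held 117 X summits, or 36.8% (31.5 to 42.4), against 25.2% to 27.1%. Per Mb of gene DNA outside promoters, X had fewer intron peaks than the other arms, 7.66 against 8.27 to 9.44, so the larger share was not a higher density. Intergenic DNA held 12, of which the strongest lay 1057 bp from PGRP-SA, a gene of the immune recognition of bacteria (rank 530), and the next lay near Atf3 (rank 713). Coding exons held 0 X summits, which allows a share of up to 1.15%, and 0 to 6 summits on each other arm. Counted by space, X had 48.4 promoter peaks per Mb of promoter DNA against 66.9 to 91.7, and 7.05 other peaks per Mb of other DNA against 7.84 to 8.39.

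**Figure D3:**
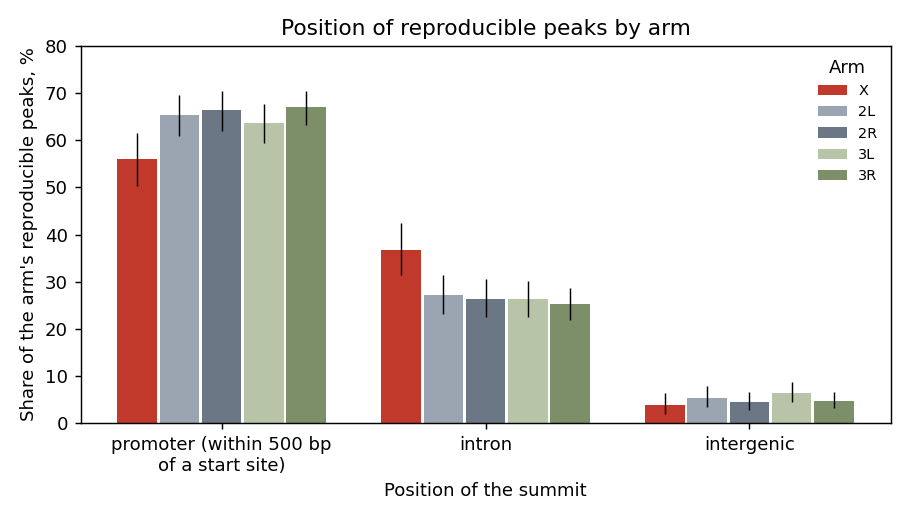
Share of each arm's reproducible peaks (vertical axis, in percent) whose summit was in a promoter (start site no more than 500 bp away), in an intron or in intergenic DNA. Bars are shares and lines are 95% exact binomial intervals. On X promoters hold 56.0% and introns 36.8%, and on the other arms promoters hold at least 63.6% and introns at most 27.1%. Per Mb of gene DNA outside promoters, X had 7.66 intron peaks against 8.27 to 9.44.

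Among the 56 X peaks within 100 bp of a start site, the strongest was the peak 31 bp upstream of Ugalt, the gene for a UDP-galactose transporter. It had the authors' signal value of 1041, and its values were 683 in replicate 1 and 353 in replicate 2, at ranks 3 and 5. The next were at TRAM, which encodes a protein of the secretory translocation channel (341, rank 124), at lawc inside Trf2, the gene for a TBP-related factor of TATA-less promoters (293, rank 166), and at Vinc, the vinculin gene (186, rank 470). These names within the distance class were chosen after their values were seen.

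The 20 strongest X peaks ranked high in both replicates. They were picked by the signal of the 2 replicates pooled, so high ranks in each were largely built in and are no independent check. Signal is the peak caller's own value on a scale that depends on the library, so it is compared within a list or as a ratio between arms. After Ugalt came the intron of Tlk with 689 (436 and 258 in replicates 1 and 2), CG32772 with 570 (369 and 198), norpA with 544 (366 and 181) and Gapdh2 with 527 (352 and 175). Replicate 1 had the higher value at each, as it did at 302 of the 312 X peaks matched in both replicates (96.8%). On the other arms pooled it was higher at 92.9% of matched peaks, so this order is not particular to the peaks named. Both replicates placed all 5 among their strongest 56 regions. The others above 400 were at ph-p, a Polycomb group gene, with 497 (329 and 180), at Gs2, a glutamine synthetase gene, with 477 (283 and 195), at bbx, which encodes an HMG-box protein, with 458 (309 and 148), at MFS10, a gene of the major facilitator transporter family, with 446 (317 and 128), and at lncRNA:CR44619 with 432 (260 and 163). The peak at bbx also lay within waw, that at MFS10 also within CG15717, and that nearest lncRNA:CR44619 within lncRNA:Vinr. The remaining 10 had signals from 278 to 341. They lay at TRAM, Ptpmeg2, a protein tyrosine phosphatase gene, lncRNA:CR43287 inside CHES-1-like, moody, which encodes a receptor of the glial blood-brain barrier, a further site at lncRNA:CR44619, lawc, Tob, Atf3, a bZIP factor gene, per, and asRNA:CR44429 inside gce. Ranks of these 20 ran from 3 to 260 in replicate 1 and from 5 to 298 in replicate 2.

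**Figure D4:**
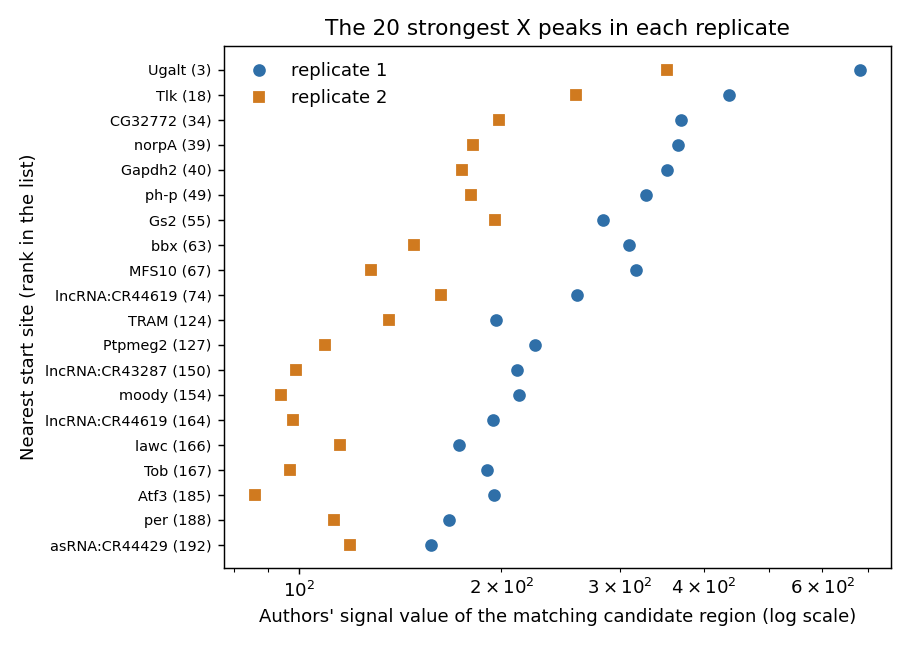
Signal values of the matching candidate region in replicate 1 (circles) and replicate 2 (squares) for the 20 strongest X peaks (horizontal log axis, authors' signal value), ordered by rank in the reproducible list, which is given in brackets after the gene with the nearest start site. Replicate 1 lies to the right at every peak, from 683 against 353 at Ugalt to 157 against 119 at asRNA:CR44429. It had the higher value at 96.8% of all matched X peaks.

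The bulk of X peaks had signals close to those of other arms, and the upper tail was lower. The median X signal was 106 against 109 to 111, and the 90th percentile was 205 against 239 to 276. Above a signal of 300 stood 14 X peaks, or 4.40%, against 5.63% to 8.55% on the other arms. The median of X promoter peaks was 109 against 115 to 119, and that of other X peaks was 102 against 96.5 to 103. The order of the medians was not the same in the replicates: the X median was 1.05 of that of the other arms in replicate 1 and 0.899 in replicate 2. The weakest X peaks inside the list were at CG3638 (73.2, rank 2421), near Myc (73.2, rank 2423) and at Ptpmeg2 (72.8, rank 2444), and the strongest X candidates outside it were near lncRNA:CR32636 (72.2, rank 2473), CG42259 (72.1, rank 2477) and CG14441 (72.0, rank 2482). Of the X peaks 264 had the common width of 420 bp, and the narrowest spanned 105 bp.

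Most X peaks had a candidate summit within 150 bp in each replicate, as did most peaks on the other arms. The list was derived from these same replicates, so a high share was built in and is no independent check. Replicate 1 had one at 317 of 318 X peaks (99.7%), replicate 2 at 313 (98.4%) and both at 312 (98.1%). On the other major arms the shares were 99.0% to 99.8% in replicate 1 and 97.2% to 98.3% in replicate 2. The X peaks without one in replicate 2 were in gce (rank 749), at CG15771 (rank 1321), in Lsd-2, a gene for a lipid droplet protein (rank 1470), near lncRNA:CR45541 (rank 1526) and near Myc (rank 2423). The X peak without a summit in replicate 1 lay in CHES-1-like (rank 2377). Across the 312 X peaks the log2 signals of the replicates correlated at Pearson r = 0.729 and Spearman rho = 0.612, as a description across regions that share libraries. On X 22 peaks overlapped another peak (6.92%), against 10.9% to 13.5% of peaks on the other arms, and 8 X peaks shared a replicate 2 candidate with a neighbour, so neighbouring members are not independent.

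The ratio of the replicates' signals was shifted on X relative to the other arms, while their correlation across X peaks lay inside the range of the other arms (Pearson 0.706 to 0.766, Spearman 0.591 to 0.665). The median log2 ratio of replicate 1 to replicate 2 signal was 0.97 on X, a ratio of 1.95, against 0.75 on 2L, 0.78 on 2R, 0.79 on 3L and 0.85 on 3R. The X median was 0.17 above that of the other arms pooled. At the ends of the X range stood Gclc, a gene of glutathione synthesis, with signals of 72.6 and 12.2 in replicates 1 and 2, and mamo, which encodes a zinc finger protein, with 19.7 and 39.1. The same order was seen in weaker candidates of the pooled list. Among ranks 2465 to 5000 the X median log2 ratio was 0.84 against 0.69 to 0.74, and among ranks 5001 to 10000 it was 0.67 against 0.56 to 0.60. Among ranks 20001 to 30000 the X value of 0.54 lay inside the range of 0.47 to 0.57. In ranks, the median X peak stood at 1166 in replicate 1, where the other arms had 1202 to 1310, and at 1497.5 in replicate 2, where they had 1148 to 1299. Reproducible X peaks were also lower in GC within 50 bp of the summit, with a mean of 37.0% against 37.8% to 40.2%, while the DNA beside the peaks had 43.2% against 42.3% to 44.1%. In replicate 2's own summits 2L had less (36.8%) than X (37.9%). The part of base composition or X copy number in the ratio was not tested.

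**Figure D5:**
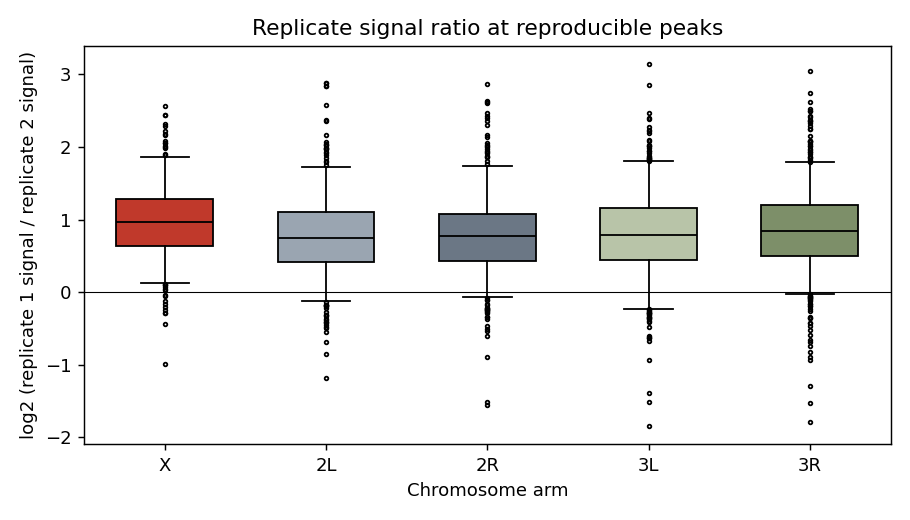
Log2 ratio of replicate 1 to replicate 2 signal (vertical axis) at reproducible peaks with a candidate summit within 150 bp in both replicates, for X (312 peaks) and the 4 other major arms. Boxes span the quartiles with the median line, whiskers extend past the boxes, and points are peaks beyond the whiskers. The X median of 0.97 lies above the other medians, which run from 0.75 to 0.85.

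Fewer X genes had a peak at a start site. Of 2196 X-linked protein-coding genes, 231 had a summit of the list no more than 1 kb from a start site, or 10.5% (9.27 to 11.9), against 15.5% to 19.0% on the other major arms and 16.1% over all protein-coding genes. Replicate 1 gave 11.1% on X and 15.7% to 19.0% elsewhere, and replicate 2 gave 9.52% and 14.9% to 18.2%. Over all annotated genes of any kind the share was 10.7%. The gene lists below are set beside these shares, and neighbouring genes can share 1 peak. The lists were chosen with earlier results of these data known, so their shares describe the listed genes and do not measure enrichment.

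Among 12 X-linked clock and clock output genes, 6 had such a summit, a share of 50% (21.1 to 78.9) beside the 10.5% of X-linked genes. Because the list was chosen with earlier results known, this share is no measure of enrichment. The per peak lay 497 bp upstream of the gene with a signal of 281 (167 and 113 in replicates 1 and 2, ranks 217 and 160). The next was at sgg, the kinase gene whose product phosphorylates Timeless, with 163 (117 and 45.6), followed by CrebB, which encodes a CREB factor, with 121 (67.3 and 55.9), and fs(1)h, a BET bromodomain gene, with 120 (66.9 and 55.0). The fs(1)h peak lay 51 bp upstream of the integrin gene mys, a neighbour whose start site was closer. Replicate 1 had the higher signal at these 4 genes, as at 96.8% of all matched X peaks. At Tlk and norpA the summits no more than 1 kb from a start site were weak, with ranks 2179 and 2219. They lay in introns, 741 and 552 bp from the nearest start site, and so were not promoter peaks. Replicate 2 had the higher signal at both (35.5 and 38.9 at Tlk, 36.0 and 44.1 at norpA in replicates 1 and 2). Each gene had a stronger intronic peak further from its start sites, at ranks 18 and 39, and Tlk held others at ranks 615 and 955. The list held no summit that close to CkIIbeta, a subunit of casein kinase 2, tyf, an activator of per translation, Pdfr, the receptor of the PDF neuropeptide, na, a sodium leak channel, disco, a transcription factor, or Fas2, a cell adhesion protein. Each had a pooled candidate there, from rank 4502 at CkIIbeta and 4637 at tyf to 22783 at Pdfr.

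Genes of dosage compensation and X counting had no reproducible peak at their start sites. This held for 0 of 7 X-linked genes (interval up to 41.0%), namely roX1, roX2, mof, Sxl, sisA, sc and run. It also held for 0 of 5 on other arms (up to 52.2%), namely msl-1, msl-2, msl-3, mle and Clamp. The first interval holds the 10.5% of X-linked protein-coding genes and the second the 16.1% over all protein-coding genes, so these counts do not set the lists apart. The best pooled candidates at start sites were at rank 2723 for Clamp, a zinc finger protein that binds GA repeats, and 4103 for roX1, and roX2 stood at 18011. One peak lay in an intron of Sxl, the switch gene of sex determination, 1348 bp from the nearest start site (signal 99.8, rank 1444, with 50.6 and 52.0 in replicates 1 and 2).

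Metabolic genes on X included 4 of 11 with a peak (36.4%, 10.9 to 69.2), in a list also chosen with earlier results known. Beside Gapdh2 and Gs2 these were the hexokinase gene Hex-A, with 243 (171 and 72.0 in replicates 1 and 2, rank 258), and Zw, the glucose-6-phosphate dehydrogenase gene, with 76.1 at its start site (rank 2268) and a stronger intronic peak of 205 (146 and 59.0, rank 395). The intronic peak of Zw was nearest to asRNA:CR44512, an antisense gene that overlaps the start of Zw. The start site peak of Zw lay inside this antisense gene. No peak lay at Pgd, Yp1, Yp2, Yp3, sesB, Ant2 or Trxr1. Of the 6 bHLH genes listed, gce had a start site peak (278, rank 192) and 4 peaks in all. No peak lay inside or up to 1 kb from ac, sc, l(1)sc, ase or Myc, and the peak nearest to Myc stood 1732 bp upstream. The list does not hold all bHLH genes of X: Mnt, a bHLH-zipper gene outside it, had 3 intronic peaks at ranks 1505, 2011 and 2143, and was chosen after its values were seen.

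Of 17 genes of neuronal excitability and synapses, 3 had a peak, a share of 17.6% (3.80 to 43.4) whose interval holds the 10.5% of X-linked genes. These were elav, a neuronal RNA-binding protein gene, with 198 (137 and 58.1, rank 416), dnc, the cAMP phosphodiesterase gene of learning, with 149 (114 and 34.1, rank 695), and Hk, a potassium channel subunit gene, with 77.4 (58.2 and 25.9, rank 2202). The elav peak lay 248 bp from the start of elav and equally far from that of lncRNA:enrr. Another peak lay inside Nrg, the neuroglian gene (rank 1608). In the eye and pigment list 2 of 7 genes had a peak, norpA and the phosphatidylinositol transfer protein gene rdgB (94.5, with 55.6 and 38.3, rank 1586), and rdgA had one inside the gene (rank 2285). In the list of patterning and signalling genes 2 of 17 had a peak (11.8%, 1.46 to 36.4), CHES-1-like, a forkhead gene, and brk with 118 (75.5 and 45.0, rank 1085). The corepressor gene Smr had 5 peaks inside the gene, the best at rank 537, and none at its start sites.

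Of 15 cytoplasmic ribosomal protein genes on X 9 had a peak (60.0%, 32.3 to 83.7), as did 46 of 78 on other arms (59.0%). The highest ranked were RpS28b, RpS5a, RpL17 and RpS10b, at ranks 747, 1030, 1366 and 1628. The peak at rank 747 lay 97 bp from the neighbour l(1)G0320, and the one nearest to RpS28b itself, 67 bp upstream, was weak (73.8, rank 2390). None of the 15 lacked a pooled candidate. Of 11 mitochondrial ribosomal protein genes 0 had a peak on X (up to 28.5%), against 22 of 62 on other arms (35.5%, 23.7 to 48.7), and the interval of the former also holds the 10.5% of X-linked genes. In the pooled list 6 of the 11 had a candidate, the best at rank 4973 for mRpL33. Proteasome genes gave 0 of 6 on X and 8 of 42 elsewhere, and RNA polymerase, Mediator and TAF genes gave 1 of 7, Polr2A at rank 1648, and 21 of 64. No test was made between these shares. Of 58 miRNA genes on X 2 had a peak, mir-4962 (rank 955) and mir-9377 (rank 1210), beside 15 of 202 elsewhere. The mir-4962 peak also lay inside Tlk. The mir-9377 peak lay inside Tis11 and was nearer to another start site. Of 24 tRNA genes on X 1 had a peak, beside 13 of 266 elsewhere. It was tRNA:Phe-GAA-1-2, at the peak it shares with RpL17.

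X peaks were spread along the arm, with a few dense loci. The median gap between neighbouring X summits was 22811 bp, against 12366 to 17509 bp on the other arms. Bins of 1 Mb held a median of 13 X peaks and at most 28, in the bin from 2 Mb, which includes per, Ugalt, ph-p, moody and Raf, against bin medians of 20 or 21 elsewhere. The widest gap, 651858 bp, lay between the peaks at rudhira and CG42258. The gene with the most peaks was CHES-1-like, with 10 inside the gene or up to 1 kb away, from rank 150 to rank 2377. Its strongest summit lay in an intron and had a signal of 313 (211 and 99.0 in replicates 1 and 2). Next were CG1677 and CG14434 with 6 peaks each, and Smr, kirre, a gene of myoblast fusion, and Raf with 5 each. Grouped by gaps of at most 10 kb, the largest groups after CHES-1-like held 8 peaks around CG14434 and Tmf, 6 around Hex-A and 6 around Raf.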

How the data were processed

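The authors aligned reads to dm6 and dm3, called candidates per replicate and on the pool, and derived the IDR list, per the file headers. The software and thresholds used for this were not given in the sources used here. The deposited score used is the authors' signal value per region, on a scale that depends on the library. Regions were not ranked by the −log10 q-value, which the authors also deposited. Summits come from the deposited offset column. The reproducible list was the strongest 2464 pooled regions, and each dm6 candidate list held 30000. No read counts were used and depth is unknown. Coordinates are dm6, 1-based. Genes are from Ensembl release 115 and sequence from RefSeq Release 6, and no X region ran past the end of the chromosome. A summit within 150 bp matched replicates. Promoters were within 500 bp, genes were given peaks within 1 kb, and motifs were counted within 50 bp.

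No test was run: with 1 group of 2 replicates, shares carry 95% exact Clopper-Pearson intervals over peaks. Motif, matching and distance counts were tested on simulated data. Members and lists were chosen with earlier results of these data known. The genes named were those at the 20 strongest X peaks, all clock and dosage compensation list genes, up to 4 per other list, those at CACGTG peaks, the 5 with most peaks (Raf ties) and the 3 on each side of the threshold. The distance classes, the replicate ratio and the names beside them, the intergenic and unmatched peaks and list members without a peak were chosen after seeing values. The symbols os and inaF matched no single gene and were left out. Alternatives changed windows, thresholds, denominators and replicates. Tables were handled with pandas 2.3.3 and NumPy 2.4.6 under Python 3.11.15, intervals came from SciPy 1.17.1, and plots from matplotlib 3.10.9.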

Additional observations from a re-analysis of the deposited data

How the results depend on the processing

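Of 57 alternatives, 29 left a value within its interval or replicate spread, 26 moved it beyond that and 2 reversed it. Leaving out 1 replicate gave an X share of 11.2% to 13.2%, a density ratio of 0.590 to 0.708, a promoter difference of −10.4 to −7.16 points (main −9.66), a median signal ratio of 0.899 to 1.05 (main 0.971) and a density ratio within 100 bp of 0.360 to 0.368 (main 0.388). The signal ratio was thus above 1 without replicate 2, and it was 1.01 for peaks outside promoters, so its direction depended on the replicate and the class of peak. Per protein-coding gene the density ratio was 0.791. The density ratio within 100 bp, a measure chosen after seeing the data, was 0.262 in the stronger 1232 peaks, 0.395 with protein-coding transcripts alone, 0.416 per Mb near start sites and 0.411 per start site. Its bound here was the narrow spread of the 2 replicates.

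The share of X peaks matched in both replicates was 67.0% within 50 bp, 99.4% within 300 bp, 99.7% by overlap and 68.6% among each replicate's strongest regions. The promoter share was 34.0% within 200 bp and 67.3% within 1000 bp, and its difference was −16.5 points within 200 bp and −13.6 in the stronger 1232 peaks. X genes with a peak came to 9.06% within 500 bp and 21.6% within 5 kb. CACGTG was in 6.29% of whole X regions. The changes under other distances and windows follow from their size, and the cause of the other changes was not tested. The replicate ratio offset of 0.17, also chosen after seeing the data, ran from 0.17 to 0.21. No paired analysis was possible because the series holds 1 group. Depth is unknown, so regions beyond the 30000 candidates were not seen.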
